A study of Mus musculus with 18 samples.

Results

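Cells read oxygen through hypoxia-inducible factors (HIFs). Prolyl hydroxylases mark the HIF alpha subunits for destruction while oxygen is present, and in its absence the alpha subunits pair with ARNT and bind a short DNA core in the promoters and enhancers of their targets. The medulla of the kidney is poor in oxygen, and the thick ascending limb (TAL) that crosses it consumes much energy for sodium chloride transport. Since HIF alpha is controlled mainly at the protein level, the mRNA of its targets is read more often than that of the factors. The 10 genes described here were taken by name out of the 55401 rows of the count and TPM tables. They are the alpha subunits *Hif1a* and *Epas1* (HIF-2 alpha), the oxygen-sensing hydroxylases *Egln1* (PHD2) and *Egln3* (PHD3), and 6 genes known to respond to HIF: *Vegfa* (an angiogenic growth factor), *Adm* (adrenomedullin, a vasodilator peptide), *Ankrd37* (an ankyrin repeat protein), *Bnip3* (a mitophagy receptor), *Ndrg1* (a stress response protein) and *Car9* (a membrane carbonic anhydrase).

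RNA was sequenced from hand-dissected pools of TAL tubules of adult male mice, each pool from another animal. The segments were CTAL, dissected from cortex, and MTAL, dissected from the inner stripe. All mice carried Cldn10 fl/fl alleles on a C57BL/6J background as labelled, so that the controls (WT) were floxed littermates without Cre, and the mutants (cKO) carried in addition a *Ksp-cadherin* Cre transgene, whose driver works in distal nephron epithelium. There were 5 pools of WT CTAL, 5 of cKO CTAL, 5 of WT MTAL and 3 of cKO MTAL. By the study's account the outer medulla of the mutants is calcified, so that its tubules came from altered tissue. The label of WT CTAL replicate 1 conflicts with itself, since its title and genotype tag name the mutant and its pool name WT.

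*Cldn10*, the deleted gene, which encodes the sodium-permeable claudin of the TAL, was at 383 to 579 CPM (counts scaled to library size, with TMM factors) in WT CTAL and 665 to 823 CPM in WT MTAL. It was at 156 to 185 CPM in cKO CTAL and 151 to 283 CPM in cKO MTAL, so that mutant pools kept part of the transcript. By the study's account mutant pools were retained for their low *Cldn10*, and a cKO CTAL pool with a level like that of WT was left out. A gap between the genotypes was thus asked of the pools kept, though its size was not. The gap is therefore no independent check of the labels. WT CTAL replicate 1 held 446 CPM, within the range of the other WT pools. The 7 TAL markers, *Slc12a1* and *Umod* among them, summed to 42690 to 52941 CPM in WT MTAL and to 59698 to 74870 CPM in the pools of the other groups, so that this sum moves with segment in WT and with genotype in MTAL. Total counts ranged from 10824299 to 62339939 per pool. Although the mice were labelled male, the female transcript *Xist* exceeded 5 CPM in 7 pools, 4 of them WT MTAL, 2 WT CTAL, 1 cKO CTAL and none cKO MTAL. Without these pools 1 WT MTAL pool and 3 WT CTAL pools remained, so that a call lost there comes with far fewer pools. Within MTAL all of these pools were WT, so that genotype and *Xist* cannot be fully told apart there. The 9 immediate early genes summed to 6676 CPM in WT MTAL replicate 11 against 1705 to 2557 CPM in the other WT MTAL pools and 2659 to 2877 CPM in cKO MTAL. They summed to 1148 to 2504 CPM in WT CTAL and 806 to 1327 CPM in cKO CTAL. In cKO CTAL 5 of the 9 were called lower than in WT CTAL, where 0.564% of all genes were. Against cKO MTAL 8 of the 9 were called lower in cKO CTAL, where 1.12% of all genes were (edgeR). cKO MTAL replicate 20 held 995 CPM of 7 principal cell markers against 95.6 and 98.3 CPM in the other cKO MTAL pools, a list that WT pools held at 53.5 to 334 CPM. The 8 tubular injury genes summed to 2132, 2138 and 9052 CPM in cKO MTAL, with replicate 18 highest, against 1086 to 1318 CPM in WT MTAL, and to 1801 to 4936 CPM in cKO CTAL against 1426 to 1691 CPM in WT CTAL. Every mutant pool thus lay above every WT pool of its segment in this sum. Of the 5 injury genes tested, 3 were called higher in cKO MTAL and 1 of 5 in cKO CTAL, where 4.44% and 0.658% of all genes were (edgeR). The part of these lists in the differences below was not tested.

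Sequence was read around the core that HIF binds, ACGTG, to show what the promoters of these genes share. RefSeq promoters (GRCm38.p6, 250 bases before to 50 bases after each start) were found for 8 of the 10 genes, with 9 starts in all, and none was given for *Epas1* or *Ndrg1*. ACGTG stood on either strand in at least 1 window of 7 of these 8 genes, and in 20.5% of the 25642 promoters in the table. The palindrome CACGTG holds ACGTG on both strands and was counted as a match of it. *Adm* lacked ACGTG and held the related core GCGTG, which stood in 36.0% of promoters. Since 6 of the 10 genes were chosen as known HIF targets, this count is no test. One match of each gene is printed 5′ to 3′ in the direction of the gene, with the core in capitals as it stands on that strand (CACGT and CACGC are the cores of the opposite strand). The *Egln1* window lies at chr8:124949306-124949334 on the minus strand, with the core 68 bases before the start.
Egln1: gggccgtggtgtACGTGcagcgcgcgcgg
The *Egln3* window lies at chr12:54204087-54204115 on the minus strand, with the core 229 bases before the start.
Egln3: tgtgcatctcagACGTGagatccaggttt
The *Hif1a* window lies at chr12:73907721-73907749 on the plus strand, where the core is part of the palindrome.
Hif1a: acacagacaagcACGTGagcggggcagct
The *Vegfa* window lies at chr17:46025358-46025386 on the minus strand, before the inner of its 2 starts. The window of the outer start held neither core.
Vegfa: ggagtgcgtgccCACGTcagagagcaaca
The *Ankrd37* window lies at chr8:46000075-46000100 on the minus strand and the *Bnip3* window at chr7:138909597-138909625, also on the minus strand.
Ankrd37: cccagcagtACGTGcctagctcggct
Bnip3: cgcacgcgccgcACGTGccacacgctccc
The *Car9* window lies at chr4:43506996-43507024 on the plus strand, with the core 18 bases before the start, and the *Adm* window at chr7:110627555-110627583 on the plus strand.
Car9: ctatttccgatgCACGTacagcccgtcca
Adm: tttagaagcaagCACGCtggagagggagg
Such a match is a run of letters and was not tested for binding in these tubules.

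Compared per length, in TPM (transcript counts per length, scaled to a fixed sum), the genes are given in order of their median. *Vegfa* was the most abundant with a median of 141 TPM over the 18 pools (102 to 210 TPM), followed by *Bnip3* with 106 TPM (74.8 to 152 TPM). *Ndrg1* (median 54.9 TPM), *Hif1a* (46.6 TPM), *Egln1* (34.5 TPM), *Epas1* (21.8 TPM) and *Egln3* (11.1 TPM) came next, and their ranges overlapped from each gene to the following one. *Ndrg1*, at up to 97.8 TPM, also overlapped *Bnip3*. *Ankrd37* and *Adm* were near the limit of use with medians of 1.79 and 1.29 TPM and from 12 to 131 counts per pool. *Car9* had 0 to 9 counts, with 4 pools at 0, where a count of 0 allows up to 3 counts. The 7 genes from *Vegfa* to *Egln3* in this order had at least 198 counts in every pool.

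**Figure D1:**
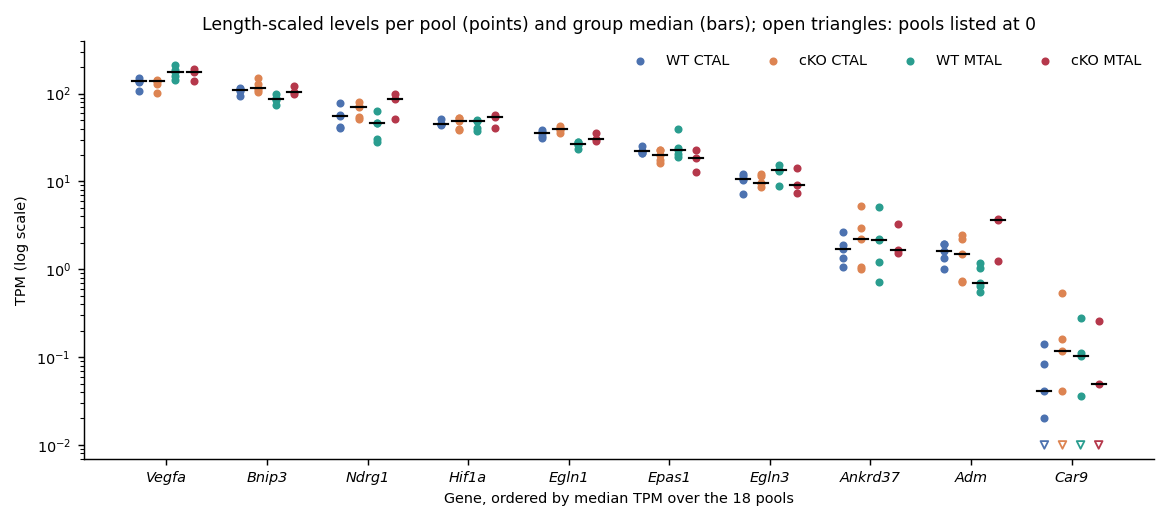
TPM on a log scale (vertical axis) of the 10 hypoxia response genes (horizontal axis, in order of median TPM), with 1 point per pool, colours for the 4 groups and bars for group medians. *Vegfa* and *Bnip3* lie highest, and *Car9* is listed at 0 in 1 pool of each group (open triangles).

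Both segments and both genotypes were compared to see whether the oxygen-sensing genes differ between cortex and outer medulla and whether loss of *Cldn10* moved them. Of the 10 genes, 7 passed the filter on low counts (3 CPM in enough pools) and entered edgeR's quasi-likelihood fits, with p-values adjusted over all genes tested. Between WT MTAL and WT CTAL 1 of these 7 passed, and it was lower, where 6.87% of the 11650 genes tested passed, 2.76% higher and 4.1% lower. In the other comparisons 0 of the 7 passed the same test, where 7.01% of 12060 genes did between cKO MTAL and WT MTAL, 1.22% of 11702 between cKO CTAL and WT CTAL, and 1.75% of 12044 between cKO MTAL and cKO CTAL. At an unadjusted p under 0.05 there were 3, 2 and 3 of 7 in these 3 comparisons, where all genes had 23.6%, 11.8% and 17.7%. DESeq2 called 0, 0 and 1 of the 7. With TMM factors it called more of all genes than edgeR did. Between cKO CTAL and WT CTAL it called 360 genes against 143 of 11702. Between cKO MTAL and cKO CTAL it called 822 genes against 211 of 12044. The difference of the genotype effects between the segments passed for 0 of 7 (0.286% of 12586 genes). At an unadjusted p under 0.05 there were 0 of 7, where 14.7% of all genes were. DESeq2 called 0 of 7, and 387 of all genes with its size factors. With a log2 fold change of at least 1 asked for as well, 0 of the 7 were called in any comparison, where 3.74%, 0.47%, 2.32%, 0.938% and 0.23% of genes were, in the order cKO MTAL against WT MTAL, cKO CTAL against WT CTAL, WT MTAL against WT CTAL, cKO MTAL against cKO CTAL and the difference of genotype effects. By direction, 0.658% of genes were higher and 0.564% lower in cKO CTAL than in WT CTAL, 1.12% and 0.631% in cKO MTAL than in cKO CTAL, and 0.262% and 0.0238% had a positive and a negative difference of genotype effects. A bulk pool cannot tell fewer cells of one type from less RNA per cell.

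**Figure D2:**
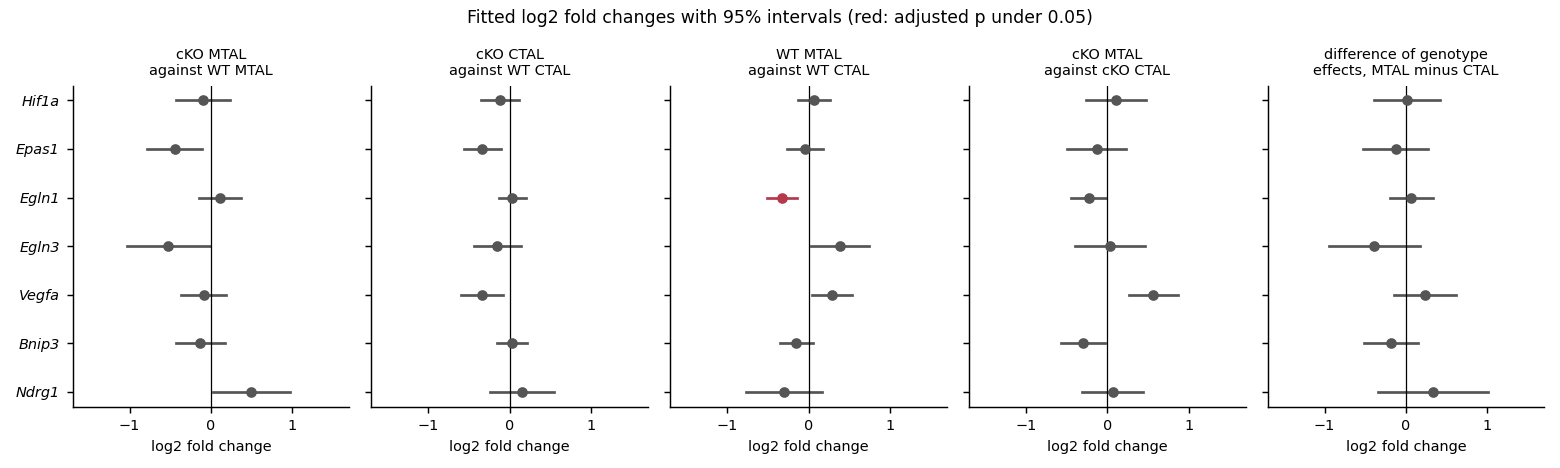
Log2 fold change (horizontal axis) with its 95% interval for the 7 tested genes (vertical axis) in the 4 comparisons and the difference of genotype effects, red where the adjusted p was under 0.05. The only red interval is *Egln1* between WT MTAL and WT CTAL, and the widest distance from 0 among the others is *Vegfa* between cKO MTAL and cKO CTAL.

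*Egln1* (ENSMUSG00000031987, chr8:124908587-124949324, minus strand, GRCm38), the main hydroxylase that marks HIF alpha in normal oxygen, had a lower level in MTAL than in CTAL of WT mice. It was at 87.3, 98.8, 79.6, 84.7 and 80.0 CPM in WT CTAL replicates 1, 3, 8, 10 and 22. In WT MTAL replicates 11, 13, 15, 17 and 19 it was at 75.8, 65.6, 66.7, 71.6 and 65.7 CPM. Every WT MTAL pool lay below every WT CTAL pool, which 7.3% of the genes tested did in one direction or the other. The log2 fold change was -0.32 (SE 0.09, n = 5 and 5), or 0.799 times, with an adjusted p of 0.030 (edgeR). In cKO CTAL it was at 95.1, 85.0, 94.0, 84.6 and 84.4 CPM and in cKO MTAL at 71.1, 80.4 and 64.9 CPM, again without overlap (10.8% of genes). That difference was -0.23 (SE 0.10, n = 3 and 5) and did not pass the test (adjusted p = 0.25, edgeR). Genotype differences were 0.11 (95% interval -0.15 to 0.37) in MTAL and 0.03 (-0.13 to 0.20) in CTAL. The WT call was lost (adjusted p of 0.059 to 0.079) when WT CTAL replicate 1, 3 or 10 or WT MTAL replicate 13, 15 or 19 was left out, and on both TPM scales (adjusted p = 0.075). With the *Xist* pools left out, which leaves 1 WT MTAL pool, the difference was -0.36 (adjusted p = 0.10), and with a term for them in the fit of all pools it was -0.36 and passed (adjusted p = 0.013, edgeR). Over all 23 settings the log2 fold change stayed between -0.40 and -0.27, with an adjusted p of 0.013 to 0.10.

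*Egln3*, a hydroxylase that is itself a HIF target, pointed the other way in WT pools without passing the test. It was at 21.96, 22.4, 24.5, 22.4 and 15.2 CPM in WT CTAL and at 34.3, 25.3, 18.7, 31.7 and 30.8 CPM in WT MTAL. Thus 4 of the 5 WT MTAL pools lay above all WT CTAL pools, and the log2 fold change was 0.39 (SE 0.17, adjusted p = 0.22, edgeR). In the mutants it was at 19.2, 22.1, 19.2, 19.4 and 16.6 CPM in CTAL and at 13.9, 26.3 and 16.4 CPM in MTAL. Pools of cKO MTAL were spread widely, with replicate 18 high and replicates 16 and 20 below every WT MTAL pool. The difference of -0.53 between cKO MTAL and WT MTAL (SE 0.24, adjusted p = 0.20, edgeR) and of -0.15 between cKO CTAL and WT CTAL (95% interval -0.44 to 0.13) did not pass. Over leave-outs of 1 pool the difference in MTAL ranged from -0.82 to -0.36 (adjusted p of 0.063 to 0.47, edgeR).

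*Hif1a* showed no difference larger than the spread of its pools. WT CTAL pools held 127 to 156 CPM and cKO CTAL pools 106 to 162 CPM. WT MTAL pools held 123 to 165 CPM and cKO MTAL pools 92.7 to 153 CPM, so that all 4 groups overlapped. Its log2 fold changes were -0.09 (95% interval -0.43 to 0.24) for genotype in MTAL, -0.12 (-0.35 to 0.11) for genotype in CTAL, 0.07 (-0.13 to 0.27) for segment in WT and 0.11 (-0.26 to 0.48) for segment in cKO. No setting tried called *Hif1a* in any of these comparisons.

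*Epas1* (ENSMUSG00000024140, chr17:86753700-86833410, plus strand), the alpha subunit that is prominent in endothelium and interstitial cells, was lower in mutant pools of both segments, short of the threshold. In WT CTAL it was at 78.8, 120.3, 83.5, 89.6 and 98.8 CPM and in cKO CTAL at 68.7, 79.2, 77.4, 78.5 and 71.5 CPM. In WT MTAL it was at 96.5, 89.3, 91.5, 94.5 and 87.9 CPM and in cKO MTAL at 55.5, 51.5 and 88.2 CPM. Hence 4 of 5 cKO CTAL pools lay below all WT CTAL pools and 2 of 3 cKO MTAL pools below all WT MTAL pools, with replicate 20 within the WT range. The log2 fold change was -0.34 in CTAL (SE 0.11, adjusted p = 0.17, edgeR) and -0.45 in MTAL (SE 0.16, adjusted p = 0.10, edgeR). Without cKO MTAL replicate 20 the difference in MTAL was -0.72 and passed (adjusted p = 0.0067, edgeR), and it passed in 1 fit of all 18 pools (-0.45, adjusted p = 0.038, edgeR). Only these 2 of 19 settings called it. Over all 19 the log2 fold change ranged from -0.72 to -0.29, with an adjusted p of up to 0.38. Between WT segments the difference of *Epas1* was -0.04 (95% interval -0.26 to 0.18). 

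Endothelial markers were compared beside *Epas1*. The 8 markers (*Pecam1*, *Cdh5*, *Emcn*, *Tek*, *Tie1*, *Plvap*, *Egfl7* and *Esam*), all with counts in every group, summed to 253 to 489 CPM in WT CTAL and 213 to 276 CPM in cKO CTAL, and to 350.0 to 457 CPM in WT MTAL and 206 to 300.1 CPM in cKO MTAL. The cKO MTAL pools thus lay below every WT MTAL pool in this sum, while the CTAL groups overlapped, and replicate 20, the pool with the highest *Epas1* of its group, also had the highest sum and the lowest *Flt1*. *Flt1*, a VEGF receptor of endothelium, was at 36.1 to 71.4 CPM in WT MTAL and 23.5 to 29.7 CPM in cKO MTAL (log2 fold change -1.10, SE 0.21, adjusted p = 0.0046, edgeR). *Kdr*, the main signalling receptor of VEGF-A, was at 36.4 to 66.6 CPM and 17.7 to 47.4 CPM (log2 fold change -0.69, SE 0.29, adjusted p = 0.15, edgeR), and passed without cKO MTAL replicate 20 (-1.22, adjusted p = 0.016). Over the 8 leave-outs of 1 pool *Kdr* ranged from -1.22 to -0.42, with an adjusted p of up to 0.39 (edgeR). Of the 8 markers, 4 were called lower in cKO MTAL (*Cdh5* by 1.34, *Tek* by 1.10, *Emcn* by 1.10 and *Plvap* by 0.86 on the log2 scale) and 1 in cKO CTAL (*Tek*, by 0.70). The shares of all genes called lower there were 2.57% and 0.564% (edgeR). In CTAL *Flt1* differed by -0.56 (adjusted p = 0.098, edgeR; 0.016 by DESeq2 with TMM factors and 0.011 without WT CTAL replicate 1) and *Kdr* by -0.45 (adjusted p = 0.31, edgeR). The part of endothelial RNA in the *Epas1* and *Flt1* differences was not tested.

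**Figure D3:**
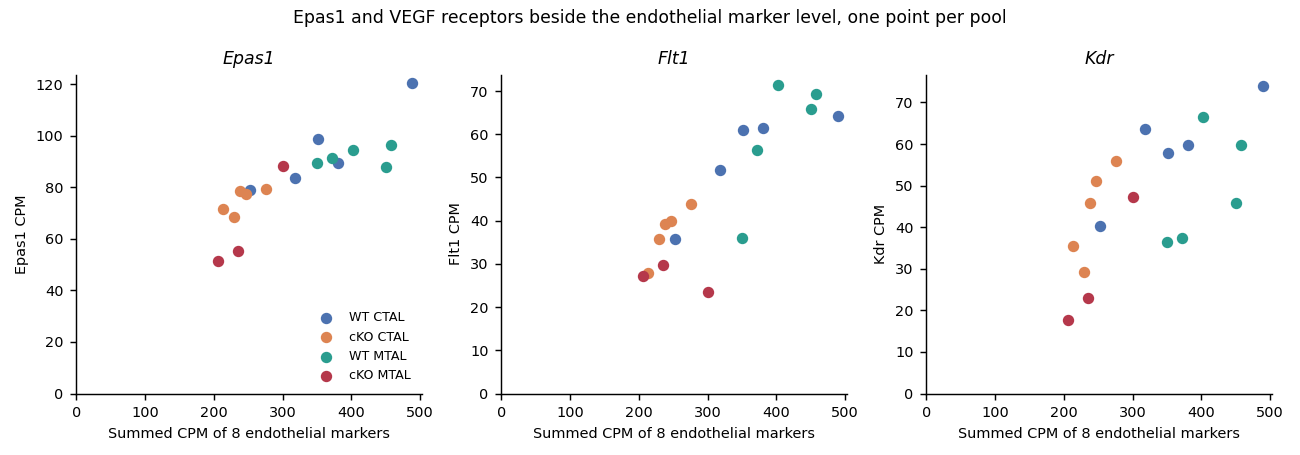
CPM of *Epas1*, *Flt1* and *Kdr* (vertical axes) against the summed CPM of 8 endothelial markers (horizontal axes), 1 point per pool, coloured by group. All cKO MTAL pools lie at or below 300.1 CPM of endothelial markers, and all WT MTAL pools at or above 350.0 CPM.

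*Vegfa* (ENSMUSG00000023951, chr17:46016993-46032369, minus strand), the most abundant of the 10 genes, was higher in MTAL than in CTAL of the mutants, close to the threshold. It was at 152, 193, 182, 167 and 190.1 CPM in cKO CTAL and at 214, 224 and 307 CPM in cKO MTAL. The groups did not overlap, as for 10.8% of genes, and neither did the sums of the immediate early genes given above. The log2 fold change was 0.56 (SE 0.14, 1.48 times, adjusted p = 0.064, edgeR). It passed with the likelihood ratio tests of edgeR (adjusted p = 0.0092) and DESeq2 (adjusted p = 0.0042 with TMM factors), and without cKO MTAL replicate 18 (0.66, adjusted p = 0.020, edgeR), while over all 21 settings the adjusted p ranged from 0.0036 to 0.34. In WT CTAL *Vegfa* was at 163, 252, 219, 206 and 272 CPM and in WT MTAL at 269, 257, 296, 253 and 293 CPM, with WT CTAL replicate 1 lowest. Here 2 of 5 WT MTAL pools lay above all WT CTAL pools and the log2 fold change was 0.29 (SE 0.12, adjusted p = 0.17, edgeR). The genotype difference was -0.34 in CTAL (SE 0.12, adjusted p = 0.25, edgeR), and it passed when WT CTAL replicate 1 was left out (-0.44, adjusted p = 0.049) or counted as cKO (-0.45, adjusted p = 0.035). Only these 2 of 23 settings called it. Over all 23 the log2 fold change ranged from -0.45 to -0.045, with an adjusted p of up to 0.87. In MTAL the genotype difference was -0.09 (95% interval -0.37 to 0.19).

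**Figure D4:**
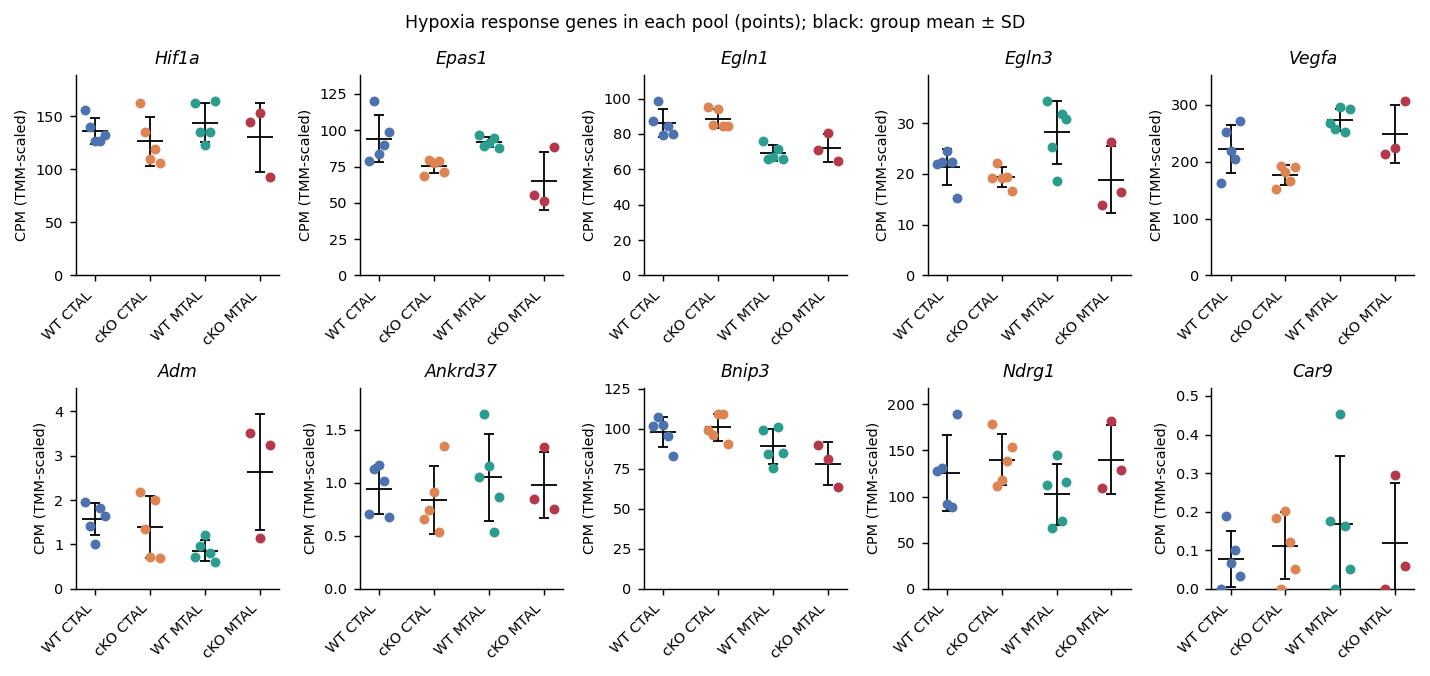
TMM-scaled CPM (vertical axes, from 0) of each of the 10 genes by group (horizontal axes), with 1 point per pool and the mean ± SD in black. *Egln1* pools of MTAL lie below those of CTAL in either genotype, and 2 of the 3 cKO MTAL pools exceed every other pool for *Adm*.

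*Adm* (ENSMUSG00000030790, chr7:110627661-110629820, plus strand) was scarce, and its levels were compared by an exact two-sided Mann–Whitney test on CPM, as were those of *Ankrd37* and *Car9*, in 12 tests that were not adjusted. *Adm* was at 1.95, 1.41, 1.01, 1.83 and 1.65 CPM in WT CTAL and at 0.704, 0.971, 1.21, 0.797 and 0.611 CPM in WT MTAL. It was lower in WT MTAL, where 4 of 5 pools lay below all WT CTAL pools (means 0.858 ± 0.237 and 1.57 ± 0.37 CPM, SD, n = 5 and 5, exact p = 0.016). Without the *Xist* pools 1 WT MTAL pool remained, where the exact p cannot go below 0.50. In cKO MTAL it was at 3.52, 1.13 and 3.25 CPM, so that replicates 16 and 20 exceeded every pool of the other groups and replicate 18 did not. The mean of 2.63 ± 1.31 CPM (SD, n = 3) against 0.858 ± 0.237 CPM in WT MTAL gave an exact p of 0.071, where 3 against 5 pools cannot go below 0.036. With TPM, replicate 18 moved above all WT MTAL pools and the exact p was 0.036. In cKO CTAL *Adm* was spread from 0.7 to 2.19 CPM and did not differ from WT CTAL beyond that spread (exact p = 0.84), nor from cKO MTAL (exact p = 0.25).

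*Ankrd37*, a compact HIF target, was at 0.674 to 1.16 CPM in WT CTAL, 0.533 to 1.35 CPM in cKO CTAL, 0.531 to 1.65 CPM in WT MTAL and 0.754 to 1.33 CPM in cKO MTAL. All 4 groups overlapped, with exact p-values of 0.55 to 0.84. *Car9*, which is close to silent in healthy kidney tubules, had between 0 and 0.453 CPM, with exact p-values of 0.59 to 1.0. A difference in *Car9* was not detectable at this depth.

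*Bnip3* was lower in MTAL than in CTAL of the mutants without overlap (10.8% of genes), at 89.9, 81.3 and 63.6 CPM against 99.2, 96.1, 109, 109 and 90.7 CPM, and did not pass the test (log2 fold change -0.30, SE 0.12, adjusted p = 0.23, edgeR). In WT it was at 83.2 to 107 CPM in CTAL and 75.4 to 101 CPM in MTAL (-0.15, 95% interval -0.35 to 0.06). *Bnip3* was the only one of the 10 genes whose deposited counts were not whole numbers, in all 18 pools, so that its level is uncertain. On the TPM scale its genotype difference in MTAL changed sign, from -0.13 to 0.33, where the median of all genes shifted by 0.19.

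*Ndrg1* was spread widely within each group. It was at 127, 130.5, 91.6, 88.2 and 189.6 CPM in WT CTAL, and at 113, 65.6, 145, 73.0 and 116 CPM in WT MTAL. The mutants held 178, 111, 118, 139 and 154 CPM in CTAL and 109, 182 and 129 CPM in MTAL. Its log2 fold change of 0.50 between cKO MTAL and WT MTAL (SE 0.22, adjusted p = 0.19, edgeR) did not pass, and became 1.01 (adjusted p = 0.0090, edgeR) in the fit of all pools with a term for the *Xist* pools. Only this 1 of 19 settings called it. Over leave-outs of 1 pool it ranged from 0.28 to 0.67 (adjusted p of 0.091 to 0.50, edgeR). Replicates 13 and 17 of WT MTAL lay below all WT CTAL pools, and the other 3 did not. Other differences of *Ndrg1* were -0.30 for segment in WT, 0.15 for genotype in CTAL and 0.07 for segment in cKO, with adjusted p of at least 0.52 (edgeR).

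Across the 18 pools the genes did not rise and fall together. Of the pairs of tested genes, *Egln1* and *Bnip3* had the highest Pearson r of log2(CPM + 1), 0.71, and *Egln1* and *Vegfa* the lowest, -0.72. After group means were removed these values were 0.62 and -0.33, while *Epas1* and *Vegfa* had 0.73 (0.48 before). The pools share segment, genotype and library depth, so that these values are a description. The genes whose pattern was most like *Epas1* among 12586 genes were *Stom* (r = 0.95), *Dll4* (0.92) and *Fabp4* (0.88), of which *Dll4* and *Fabp4* are known from endothelium. For *Hif1a* they were *Mcfd2* (0.90), *Tfpt* (0.84) and *Fgf1* (0.83), for *Egln1* *Ly6g6g* (0.90), *Gcsh* (0.90) and *C1qc* (0.89), and for *Egln3* *Actr6* (0.83), *Fbxo36* (0.83) and *Cyp4f16* (0.82). For *Vegfa* they were *Hspg2* (0.90), *Mprip* (0.86) and *Bag3* (0.86), for *Bnip3* *Enpp1* (0.88), *Snhg4* (0.86) and *Rab3d* (0.86), and for *Ndrg1* *Dynll1* (0.79), *Maea* (0.79) and *Llgl2* (0.78).

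Other genes of the pathway were followed in 4 lists, the HIF machinery (other alpha subunits, ARNT partners, VHL complex and coactivators), partners of VEGF and adrenomedullin, glycolytic HIF targets and other HIF targets. Between cKO MTAL and WT MTAL, 0 of 14 machinery genes passed (1 by DESeq2), with a median log2 fold change of -0.12. At an unadjusted p under 0.05 there were 4, where 23.6% of all genes were. The 4 were *Arnt2* (0.47), the coactivator competitor *Cited4* (0.94), the elongin subunit *Elob* (0.37) and the coactivator *Ep300* (-0.35). The other 10 were *Arnt* (-0.26), *Cited2* (-0.40), *Crebbp* (-0.0041), *Cul2* (0.22), *Egln2* (-0.07), *Eloc* (-0.22), the asparagine hydroxylase *Hif1an* (-0.17), *P4htm* (0.29), *Rbx1* (-0.29) and *Vhl* (-0.16). *Hif3a*, a shorter alpha subunit, did not pass the filter and lay between 0.4 and 3.81 CPM. *Arnt2*, a partner of HIF alpha in place of ARNT, was at 109.9 to 140.1 CPM in WT MTAL and 127 to 207 CPM in cKO MTAL (log2 fold change 0.47, SE 0.14, adjusted p = 0.053, edgeR). *Arnt2* was also higher in cKO CTAL than in WT CTAL (0.40, SE 0.10, adjusted p = 0.067, edgeR), at 116 to 159.9 CPM against 82.8 to 109 CPM without overlap (3.13% of genes), and DESeq2 called both (adjusted p = 0.023 and 0.010 with TMM factors). *Arnt2* also passed without cKO MTAL replicate 20 in MTAL (0.64, adjusted p = 0.014) and, at the threshold, without cKO CTAL replicate 9 in CTAL (0.45, adjusted p = 0.0498, edgeR). Over all leave-outs of 1 pool it ranged from 0.30 to 0.64 in MTAL (adjusted p up to 0.21, edgeR). In CTAL it ranged from 0.33 to 0.45 (adjusted p up to 0.16, edgeR). In MTAL *Arnt2* passed on the TPM scales and in 1 fit of 18 pools, while no machinery gene passed with the *Xist* term. In CTAL no machinery gene passed in these settings.

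Of the VEGF and adrenomedullin partners 1 of 10 fell in cKO MTAL, *Flt1*. Glycolytic targets gave 0 of 17 with edgeR (4 at an unadjusted p under 0.05, where 23.6% of all genes were, and 1 by DESeq2). Their median log2 fold change was 0.15 against 0.0012 over all genes. Of 31 other HIF targets 3 rose and 3 fell, where 4.44% and 2.57% of all genes did. *Car12*, a membrane carbonic anhydrase, was at 17.3 to 39.7 CPM in WT MTAL and 36.9 to 90.9 CPM in cKO MTAL (1.59, SE 0.28, adjusted p = 0.0031, edgeR). *Hmox1*, the heme oxygenase induced by oxidative stress, went from 1.32 to 2.29 CPM up to 4.34 to 6.67 CPM (1.61, SE 0.39, adjusted p = 0.021, edgeR), and lost its call without WT MTAL replicate 17 (1.58, adjusted p = 0.055) and failed the filter without any 1 of the 3 cKO MTAL pools. No WT MTAL pool reached 3 CPM of *Hmox1*, so that it was tested through its cKO MTAL pools and had to be higher there, and its place among the 3 is no support for the list. With no filter its adjusted p was 0.049. *Wsb1*, a ubiquitin ligase subunit, was at 19.6 to 27.9 CPM and 35.3 to 78.4 CPM (1.27, SE 0.21, adjusted p = 0.0020, edgeR). *Mxi1*, a MYC antagonist, fell by 0.62 (SE 0.13, adjusted p = 0.011), *Vldlr*, a lipoprotein receptor, by 0.56 (SE 0.12, adjusted p = 0.013) and *Selenbp1*, a selenium-binding protein, by 0.47 (SE 0.13, adjusted p = 0.043) on the log2 scale (edgeR). *Vldlr* lost its call without cKO MTAL replicate 16 (-0.51, adjusted p = 0.053) or 20 (-0.51, adjusted p = 0.058), and *Selenbp1* without any WT MTAL pool or cKO MTAL replicate 18 or 20 (adjusted p of 0.059 to 0.18). The 4 lower calls were also lost on the TPM scale (adjusted p of 0.081 to 0.48).

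Between cKO CTAL and WT CTAL, 1 of 68 genes of the 4 lists was called, *Selenbp1* (-0.41, SE 0.08, adjusted p = 0.024, edgeR), where 1.22% of all genes were, from 194 to 243 CPM in WT down to 145 to 180.1 CPM in cKO, and 13 of the 68 had an unadjusted p under 0.05, where 11.8% of all genes did. DESeq2 with TMM factors called *Arnt2*, *Flt1* and *Wsb1* (0.54, adjusted p = 0.0055) as well. The *Selenbp1* call was lost on the TPM scales (adjusted p = 0.17), in the fits of 18 pools without and with the *Xist* term (adjusted p = 0.053 and 0.083), without the *Xist* pools (-0.36, adjusted p = 0.17) and without any 1 of WT CTAL replicates 8, 10 and 22 or cKO CTAL replicates 2, 4 and 7 (adjusted p of 0.051 to 0.066).

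Between the segments, a glucose transporter and 2 glycolytic enzymes were higher in MTAL than in CTAL. In WT, 3 of 17 glycolytic targets rose, where 2.76% of all genes did. *Slc2a1*, the glucose transporter GLUT1, was at 138 to 178 CPM in WT CTAL and 170.4 to 263 CPM in WT MTAL (0.47, SE 0.12, adjusted p = 0.027, edgeR). *Ldha*, which makes lactate, was at 121 to 142 CPM and 149 to 194 CPM (0.38, SE 0.09, adjusted p = 0.014, edgeR). *Pfkl*, the liver-type phosphofructokinase, was at 165 to 191 CPM and 201 to 273 CPM (0.34, SE 0.09, adjusted p = 0.029, edgeR). The same 3 genes rose between cKO MTAL and cKO CTAL, where 1.12% of all genes did, with *Slc2a1* at 128 to 195 CPM and 252 to 278 CPM (0.79, SE 0.12, adjusted p = 0.0047), *Ldha* at 129.6 to 196 CPM and 189 to 283 CPM (0.72, SE 0.15, adjusted p = 0.039) and *Pfkl* at 149.6 to 196 CPM and 216 to 242 CPM (0.51, SE 0.10, adjusted p = 0.025, edgeR). These pools are other animals than the WT pools, and the immediate early genes were also higher in cKO MTAL than in cKO CTAL. On the TPM scales all 3 WT calls were lost (adjusted p of 0.15 to 0.29), as were *Pfkl* and *Ldha* in cKO (adjusted p of 0.17 to 0.26) and, with TPM + 0.1, *Slc2a1* (adjusted p = 0.055). *Pfkfb3*, which makes an activator of phosphofructokinase, and *Pgk1*, a glycolytic kinase, had lower levels in WT MTAL (-0.87, adjusted p = 0.087, and -0.27, adjusted p = 0.063, edgeR), and DESeq2 with TMM factors called both lower (adjusted p = 0.021 and 0.030). They were named after their values were seen. In cKO, the calls were lost in 6 of 8 leave-outs of 1 pool for *Pfkl* (all but cKO CTAL replicate 2 and cKO MTAL replicate 18, adjusted p up to 0.098) and in 7 of 8 for *Ldha* (all but cKO CTAL replicate 2, up to 0.13), while *Slc2a1* passed in all 8. In WT, *Ldha* lost its call without WT CTAL replicate 1 (0.053), *Pfkl* without WT CTAL replicate 1, 8 or 10 or WT MTAL replicate 11, 13 or 19 (up to 0.097) and *Slc2a1* without WT CTAL replicate 1, 8 or 22 or WT MTAL replicate 13 or 19 (up to 0.077). *Pfkl* was also lost without the *Xist* pools (0.46, adjusted p = 0.075), and *Pfkl* and *Ldha* with a term for them (adjusted p = 0.058 and 0.12).

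Of the remaining pathway genes between WT segments, *Cited2*, a competitor of HIF for its coactivators, rose in WT MTAL (0.52, SE 0.12, adjusted p = 0.011), as did *Mxi1* (0.58, adjusted p = 0.0047) and *Plod2*, a collagen lysyl hydroxylase (0.74, adjusted p = 0.011, edgeR). *Car12* fell most, from 56.9 to 127 CPM in WT CTAL down to 17.3 to 39.7 CPM in WT MTAL (-2.02, SE 0.24, adjusted p = 4.7e-05, edgeR). *Cxcr4*, a chemokine receptor, fell by 1.43 (adjusted p = 0.019), *Ramp3*, a coreceptor of adrenomedullin, by 1.03 (adjusted p = 0.038), *Igfbp3*, a binding protein of insulin-like growth factors, by 0.89 (adjusted p = 0.0073) and *Wsb1* by 0.88 (adjusted p = 0.0019) on the log2 scale (edgeR). *Ramp3* lost its call in 7 of 10 leave-outs of 1 pool (WT CTAL replicates 1, 3 and 8 and WT MTAL replicates 11, 13, 15 and 19, adjusted p up to 0.098), and *Cxcr4* without WT CTAL replicate 22 (-1.23, adjusted p = 0.058). *Cited2* was not called in 1 fit of 18 pools (adjusted p = 0.12), nor *Ramp3* (adjusted p = 0.085), and on the TPM scales *Mxi1* (adjusted p = 0.069), *Plod2* (adjusted p of 0.074 to 0.076) and *Cxcr4* (adjusted p of 0.087 to 0.092) were not. Without the *Xist* pools, which leaves 1 WT MTAL pool, *Cited2* (0.31, adjusted p = 0.17), *Cxcr4* (-0.54, adjusted p = 0.19), *Ramp3*, *Wsb1*, *Mxi1* and *Plod2* (adjusted p of 0.051 to 0.089) lost their calls, while *Car12* and *Igfbp3* passed (adjusted p = 0.016 and 0.035). With a term for these pools *Cited2*, *Ramp3* and *Plod2* lost theirs (adjusted p of 0.093 to 0.15). *Ramp3* reached 3 CPM in all WT CTAL pools and was at 1.77 to 3.49 CPM in WT MTAL, so that the filter was met by the higher group alone. *Car12*, *Wsb1* and *Mxi1*, called in both the WT segment comparison and the MTAL genotype comparison, share the WT MTAL pools in them. In cKO, *Car12* differed by -1.08 between MTAL and CTAL without passing (adjusted p = 0.095, edgeR). The difference of the genotype effects between the segments passed for 0 of 73 pathway genes. At an unadjusted p under 0.05 there were 9, where 14.7% of all genes were, and DESeq2 called 0.

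**Figure D5:**
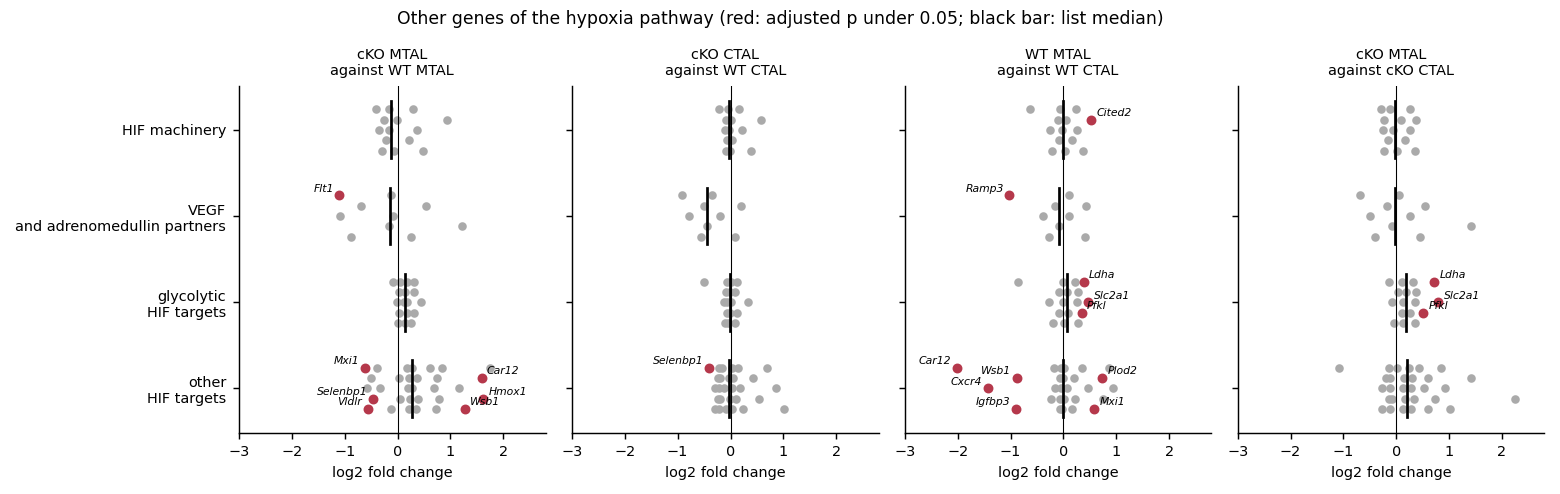
Log2 fold change (horizontal axis) of the other pathway genes in 4 lists (vertical axis) for the 4 comparisons, 1 point per gene, red and named where the adjusted p was under 0.05 and with a black bar at the list median. *Slc2a1*, *Ldha* and *Pfkl* are red in both segment comparisons, and the list medians lie between -0.45 and 0.27.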

How the data were processed

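Polyadenylated RNA of each pool of tubules was sequenced in pairs with a strand-specific kit by the authors. Reads were trimmed (fastp in the study's methods, Trimmomatic in the submitters' processing notes, a difference not settled here), checked with FastQC and Picard and aligned with DRAGEN to mm10. The authors deposited estimated counts per gene and TPM per gene for all pools, each in 1 table. Rounding made these estimated counts whole, since the planned test had assumed whole counts. Between 6.26% and 9.53% of values per pool were not whole. Whether counting used strand was not given in the sources used here, so that overlapping genes on the other strand (*Adm*, *Ankrd37*, *Bnip3*, *Ndrg1*, *Car9* and *Hif1a* have one) cannot be set apart.

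The 10 genes, the pathway lists and the tests were chosen with earlier results of these data known. Each pair of groups was fitted over all genes with edgeR 4.0.16 in R 4.3.3 (TMM factors, quasi-likelihood F test, Benjamini-Hochberg adjustment, threshold 0.05), keeping genes that reached 3 CPM in 5 pools, or in 3 pools where cKO MTAL entered. CPM in the text use TMM over all 18 pools. SE is the log2 fold change divided by the root of F. The difference of genotype effects was an interaction term in 1 fit of 18 pools. *Adm*, *Ankrd37* and *Car9* failed the filter and were compared by exact Mann–Whitney tests (scipy 1.17.1). All 10 genes were named in every comparison, with every gene of the HIF machinery list, up to 4 called genes per direction of each other list, and the 3 genes most like each tested gene by Pearson r of log2(CPM + 1). The fits were tested on simulated data. Alternatives were likelihood ratio tests of edgeR and DESeq2 1.42.0, other factors, no filter, limma 3.58.1 on log2(TPM + 1) and log2(TPM + 0.1), 1 fit of 18 pools, WT CTAL replicate 1 counted as cKO, and each pool left out. Those on the *Xist* pools were chosen after seeing the data. Each pool is of another animal, and the smallest chi-square per gene between pools of a group was 14.8, so that none was a repeat. Intervals and the limit of 3 counts cover sampling of these pools only. The study left out some mutant pools before deposit, partly on their *Cldn10* level.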

Additional observations from a re-analysis of the deposited data

Results flagged for a closer look

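Single pools far from the rest of their group were looked for in 40 genes and the 3 groups of 5 pools, which made 120 tests, of which chance gives about 1 in 20. A pool stood apart in 9 of them, and 1 of these 9 was among the 10 hypoxia response genes. *Egln3* was at 15.2 CPM in WT CTAL replicate 22 against 21.96 to 24.5 CPM in the other WT CTAL pools. The same pool held 3.81 CPM of *Hif3a* against 0.941 to 1.33 CPM and 80.7 CPM of *Egln2* against 63.3 to 67.7 CPM. *Hif3a* was also high in cKO CTAL replicate 2, at 2.10 CPM against 0.4 to 0.87 CPM, and in WT MTAL replicate 15, at 3.63 CPM against 0.57 to 1.41 CPM. WT CTAL replicate 22, cKO CTAL replicate 2 and WT MTAL replicate 15 are all among the 7 pools with *Xist*. The other *Xist* pools, WT CTAL replicate 3 and WT MTAL replicates 11, 17 and 19, lay in the lower *Hif3a* ranges given for their groups. The part of *Xist* in *Hif3a* was not tested. *Arnt2* was at 82.8 CPM in WT CTAL replicate 3 against 105 to 109 CPM, *Car12* at 39.7 CPM in WT MTAL replicate 11 against 17.3 to 23.2 CPM, *Ldha* at 196 CPM in cKO CTAL replicate 2 against 129.6 to 137 CPM, and *Ramp3* at 8.15 CPM in cKO CTAL replicate 21 against 4.49 to 5.45 CPM.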

How the results depend on the processing

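No paired analysis was possible because the groups share no replicate number. Of 777 log2 fold changes of the 7 tested genes under alternatives, 707 kept their direction and side of the threshold, 13 passed newly, 11 no longer passed and 46 changed sign. Causes were not tested.

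The number of the 7 genes called rose from 0 to 1 between cKO MTAL and WT MTAL in 1 fit of 18 pools and with a term for the *Xist* pools (0 to 1 over the leave-outs of 1 pool), and between cKO CTAL and WT CTAL with WT CTAL replicate 1 as cKO (0 to 1 over leave-outs). Between WT MTAL and WT CTAL it fell from 1 to 0 without a filter, on both TPM scales, with WT CTAL replicate 1 as cKO and without the *Xist* pools (0 to 1). Between cKO MTAL and cKO CTAL it rose from 0 to 1 with the likelihood ratio tests of edgeR and DESeq2 (either factors), without a filter, in both fits of 18 pools and with WT CTAL replicate 1 as cKO (0 to 1). Of the 12 tests on scarce genes, 1 passed, 2 with TPM and 0 without the *Xist* pools, where the test that had passed compares 1 pool with 3 and cannot pass.

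Signs changed between cKO MTAL and WT MTAL for *Hif1a* (0.14 and 0.15 with TPM + 1 and TPM + 0.1, 0.027 with the *Xist* term, -0.20 to 0.10 over leave-outs), *Bnip3* (0.33 and 0.33 with TPM, -0.26 to 0.0025 over leave-outs) and *Vegfa* (0.015 with the *Xist* term). Between cKO CTAL and WT CTAL they did for *Hif1a* (0.0013 and 0.0011 with TPM) and *Bnip3* (-0.026 to 0.067 over leave-outs). Between WT MTAL and WT CTAL they did for *Hif1a* (-0.035 and -0.036 with TPM, -0.019 without the *Xist* pools), *Epas1* (0.11 and 0.11 with TPM, 0.081 without the *Xist* pools, -0.10 to 0.062 over leave-outs) and *Flt1* (-0.010 with WT CTAL replicate 1 as cKO, -0.47 without the *Xist* pools, -0.045 with their term, -0.010 to 0.25 over leave-outs).

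Between cKO MTAL and cKO CTAL signs changed for *Egln3* (-0.011 with upper quartile factors, -0.015 without a filter, -0.049 and -0.057 with TPM, -0.0020 with WT CTAL replicate 1 as cKO, -0.016 with the *Xist* term, -0.25 to 0.18 over leave-outs), *Ndrg1* (-0.13 to 0.19), *Hif1a* (-0.0084 to 0.30) and *Epas1* (-0.43 to 0.036 over leave-outs). In the difference of genotype effects they did for *Hif1a* (-0.037 without a filter, -0.099 with WT CTAL replicate 1 as cKO, -0.088 to 0.22 over leave-outs), *Vegfa* (-0.0076 and -0.0076 with TPM), *Bnip3* (0.16 and 0.17 with TPM), *Flt1* (0.02 without the *Xist* pools), *Epas1* (-0.39 to 0.038), *Arnt2* (-0.10 to 0.24), *Kdr* (-0.77 to 0.025) and *Cldn10* (-0.48 to 0.0020 over leave-outs).

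Mean CPM differences of scarce genes changed sign for *Ankrd37* (0.778 in cKO CTAL against WT CTAL and -0.373 in cKO MTAL against cKO CTAL with TPM; over leave-outs -0.252 to 0.0743 in cKO MTAL against WT MTAL, -0.034 to 0.245 in WT MTAL against WT CTAL and -0.0377 to 0.268 in cKO MTAL against cKO CTAL) and *Car9* (-0.0557 in WT MTAL against WT CTAL without the *Xist* pools and -0.0707 in cKO MTAL against cKO CTAL with TPM; over leave-outs -0.14 to 0.0204 in cKO MTAL against WT MTAL and -0.0825 to 0.0655 in cKO MTAL against cKO CTAL).

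Genes called over the whole table moved from 845 to between 307 and 2136 (cKO MTAL against WT MTAL), from 143 to 39 to 360 (cKO CTAL against WT CTAL), from 800 to 449 to 1068 (WT MTAL against WT CTAL), from 211 to 58 to 822 (cKO MTAL against cKO CTAL) and from 36 to 0 to 387 (difference of genotype effects). TPM + 1 shifted the median of all genes by 0.19 and 0.13 in the genotype comparisons of MTAL and CTAL, where the share of calls that were higher went from 63.3% to 89.9% and from 53.8% to 90.2%, and from 40.2% to 21.5% between WT segments. With 3 cKO MTAL pools, of which the leave-outs keep 2, and 0 to 9 counts of *Car9*, small differences of the scarce genes could not be seen.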
